A study of Rattus norvegicus with 16 samples.

Results

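Zinc enters the cytosol of a cell through importers of the SLC39 (ZIP) family and is moved out of it, across the plasma membrane or into organelles and vesicles, by exporters of the SLC30 (ZnT) family. Metallothioneins are small cysteine-rich proteins that bind zinc and copper in the cytosol, and MTF1 is the zinc-sensing transcription factor that switches on metallothionein genes and the exporter gene Slc30a1 when cytosolic zinc is high. In the hippocampus zinc is also a synaptic signal: the vesicular exporter encoded by Slc30a3 loads it into glutamatergic vesicles, and zinc released from them acts on NMDA receptors. The genes described here are 10 zinc-handling genes of the rat, namely the exporters Slc30a1, Slc30a3, Slc30a4, Slc30a5 and Slc30a7, the importers Slc39a1 and Slc39a7, the metallothioneins Mt1a and Mt3, and the sensor Mtf1. They were found by the gene name printed on the array, which gave 12 probes for the 10 genes among 41012 probes for transcripts, and all 10 genes were among the 22925 genes tested. The set was selected on the measured level of Slc30a1, which was high in PRR7 knockdown, so the values of Slc30a1 there are a description with no test, and the question asked of the other 9 genes is whether they moved with it.

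The study measured RNA of primary hippocampal neuron cultures prepared from Sprague-Dawley rat embryos at embryonic day 18 to 19. It asked about PRR7, a membrane protein of synapses. In the knockdown group (KD) cultures received a lentivirus, made with pTRIP vectors, that carried a short hairpin RNA (shRNA) against the coding region of PRR7. The nontargeting group (NT) received a lentivirus whose shRNA has no target, the overexpression group (OE) a lentivirus with the full-length PRR7 in the FUGW vector, and the fourth group no virus (NO). Each group held 4 biological replicates. Replicates 1 and 3 were read in Cy3 and replicates 2 and 4 in Cy5, and an array always paired 2 samples within a group, over 8 arrays in all. KD and NT lay on the first slide, and OE and NO on the second, so only KD against NT and OE against NO were compared within a slide, and in any other pair slide and group cannot be told apart. The labels give 1 shRNA sequence against PRR7 and name no empty virus for the OE group. No probe was named Prr7 and none held the shRNA target, so neither the knockdown nor the overexpression could be checked on these arrays. Between 49.2% and 69.6% of probes were well above background in a sample.

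Transcripts of astrocyte markers were present beside those of neurons. The astrocyte genes Gfap and Slc1a3 were well above background in 4 of 4 samples of each group, and Sox9 in 1 to 3. Of the lists of cell markers, 7 of 8 neuronal and 10 of 10 astrocyte genes were measured. So were 8 of 8 genes of the oligodendrocyte lineage, 4 of 7 of microglia, 4 of 5 of fibroblasts and 2 of 5 of vascular cells. Being measured means passing the probe filter and does not show that a cell type was present. The vascular gene Cldn5 was well above background in 0 of 4 KD and 0 of 4 OE samples, but in 2 of 4 NT and 2 of 4 NO samples. The other vascular gene measured, Kdr, was so in 4 KD, 3 NT, 4 OE and 4 NO samples. In KD against NT 21.5% of all genes passed the test in either direction (an adjusted p of 0.05 in limma) and 10.5% rose. Of the 10 astrocyte genes 4 rose on the tested probe. These were the glutamate transporters Slc1a3 (log2 difference 1.14) and Slc1a2 (0.59), S100b (1.13) and glutamine synthetase Glul (1.49). Slc1a3, S100b and Glul averaged 15.52, 10.64 and 12.29 in KD, against 14.38, 9.50 and 10.81 in NT. In NO, on the other slide, they averaged 15.69, 10.92 and 13.21, so their KD means were not above those of cultures with no virus. Slc1a2 averaged 11.65 in KD, 11.06 in NT and 10.76 in NO. Gfap, named because it alone fell, was lower (-1.57). The other probe of Slc1a2 differed by 0.03 and did not pass (limma adjusted p = 0.859), so the probes of this gene disagreed. The other probes of Slc1a3, Glul and Gfap passed in the same direction as the tested ones. Of the 8 oligodendrocyte lineage genes 2 rose and 0 fell, among them the transcription factor gene Olig1 (1.25). Of the 7 neuronal genes 0 rose and 1 fell, the neurofilament gene Nefl (-0.68), while the tubulin gene Tubb3 differed by 0.69 without passing (limma adjusted p = 0.060), and the median of the 7 was -0.10. The mean log2 intensity over the 10 astrocyte genes lay between 11.99 and 12.05 in KD samples, against 11.51 to 11.90 in NT samples, and between 12.27 and 12.59 in OE samples, against 11.71 to 12.42 in NO samples. In such bulk RNA fewer cells of a type and less RNA per cell cannot be told apart, and the part of these markers in the values below was not tested.

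Values are log2 normalized intensities of a sample's own dye, a scale on which 1 unit is a factor of 2. They compare samples for a probe and do not rank genes against each other. The probes of the members on which the results turn are shown because each reports a stretch of 60 bases of its transcript. The array annotation places the Slc30a1 probe at chr13:107983689-107983748, the Slc30a3 probe at chr6:25261113-25261557 and the Slc39a7 probe at chr20:4963365-4963905, all on the plus strand of rn4. The intervals of Slc30a3 and Slc39a7 are longer than their probes.
Slc30a1 probe: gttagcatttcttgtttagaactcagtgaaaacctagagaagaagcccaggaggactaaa
Slc30a3 probe: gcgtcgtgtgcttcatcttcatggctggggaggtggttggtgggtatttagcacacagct
Slc39a7 probe: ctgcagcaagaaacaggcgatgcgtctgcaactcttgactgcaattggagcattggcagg

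MTF1 is known to act through metal response elements near gene starts. The core of that element was searched as TGCACNC or TGCGCNC, on both strands, in the 250 bases before the start of each gene in RefSeq's promoters of the GRCr8 assembly. An entry was found for 9 of the 10 members (none for Slc30a7), with the array's Mt1a under its current symbol Mt1. A match was present in 8 of the 9, against 20.6% of the 33469 promoters searched. Those promoters were not matched to the members for base composition, so no enrichment is read from these shares. There were 6 matches for Mt1, 4 for Slc39a7, 3 for Mt3, 2 each for Slc30a1, Slc30a4, Slc30a5 and Mtf1, and 1 for Slc39a1, some of which overlap on the 2 strands, whereas the Slc30a3 window held none. These matches are letters and not measured binding sites. The windows of the exporter and of the metallothionein are given because they belong to the member with the largest difference and to the classic metal-induced gene, with matches in capitals. The Slc30a1 window is chr13:106021769-106022018 on the plus strand and the Mt1 window is chr19:10832976-10833225 on the minus strand.
Slc30a1 promoter: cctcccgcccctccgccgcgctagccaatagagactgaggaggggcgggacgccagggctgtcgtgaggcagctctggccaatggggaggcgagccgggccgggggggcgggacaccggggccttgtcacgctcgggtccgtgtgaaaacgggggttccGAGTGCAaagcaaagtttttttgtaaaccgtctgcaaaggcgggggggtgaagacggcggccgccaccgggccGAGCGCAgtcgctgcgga
Mt1 promoter: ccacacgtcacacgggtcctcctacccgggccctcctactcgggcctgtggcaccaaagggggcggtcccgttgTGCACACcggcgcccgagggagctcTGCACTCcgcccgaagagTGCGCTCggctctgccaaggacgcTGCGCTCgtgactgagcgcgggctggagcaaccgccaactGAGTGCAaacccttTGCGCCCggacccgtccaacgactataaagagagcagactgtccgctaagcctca

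Slc30a1 encodes the exporter of the plasma membrane. It was highest in KD cultures, with log2 intensities of 10.26, 10.22, 10.62 and 10.56 in replicates 1 to 4, against 8.04, 8.18, 8.24 and 8.37 in NT cultures. OE cultures had 9.30, 9.41, 9.53 and 9.54, against 9.32, 9.09, 9.47 and 9.56 in NO cultures. The KD samples all lay above the other 12 samples and the NT samples all lay below them, while OE and NO overlapped. The group means were 10.42 ± 0.20 in KD, 8.21 ± 0.14 in NT, 9.44 ± 0.12 in OE and 9.36 ± 0.21 in NO (SD, n = 4 each).

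The difference of KD and NT was 2.21 on the log2 scale (95% confidence interval 1.89 to 2.53), or 4.62-fold, the 16th highest of 22925 genes. Because the gene was chosen for its level in KD, this difference, its interval and its rank are a description and no test. It was 2.92 from the processed signals of the scanner software and 3.1 from the deposited series matrix, both over 1.5 times as large as a fold. Against NO, the same exporter was 1.05 higher in KD and 1.15 lower in NT (log2 difference -1.15), so the KD and NT means lay on opposite sides of the mean of the cultures with no virus. The OE mean was 1.24 above the NT mean. These 3 values cross slides. The comparison that had no part in the choice of the gene is OE against NO, where the difference was 0.08 (interval -0.23 to 0.40, limma adjusted p = 1.00).

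**Figure D1:**
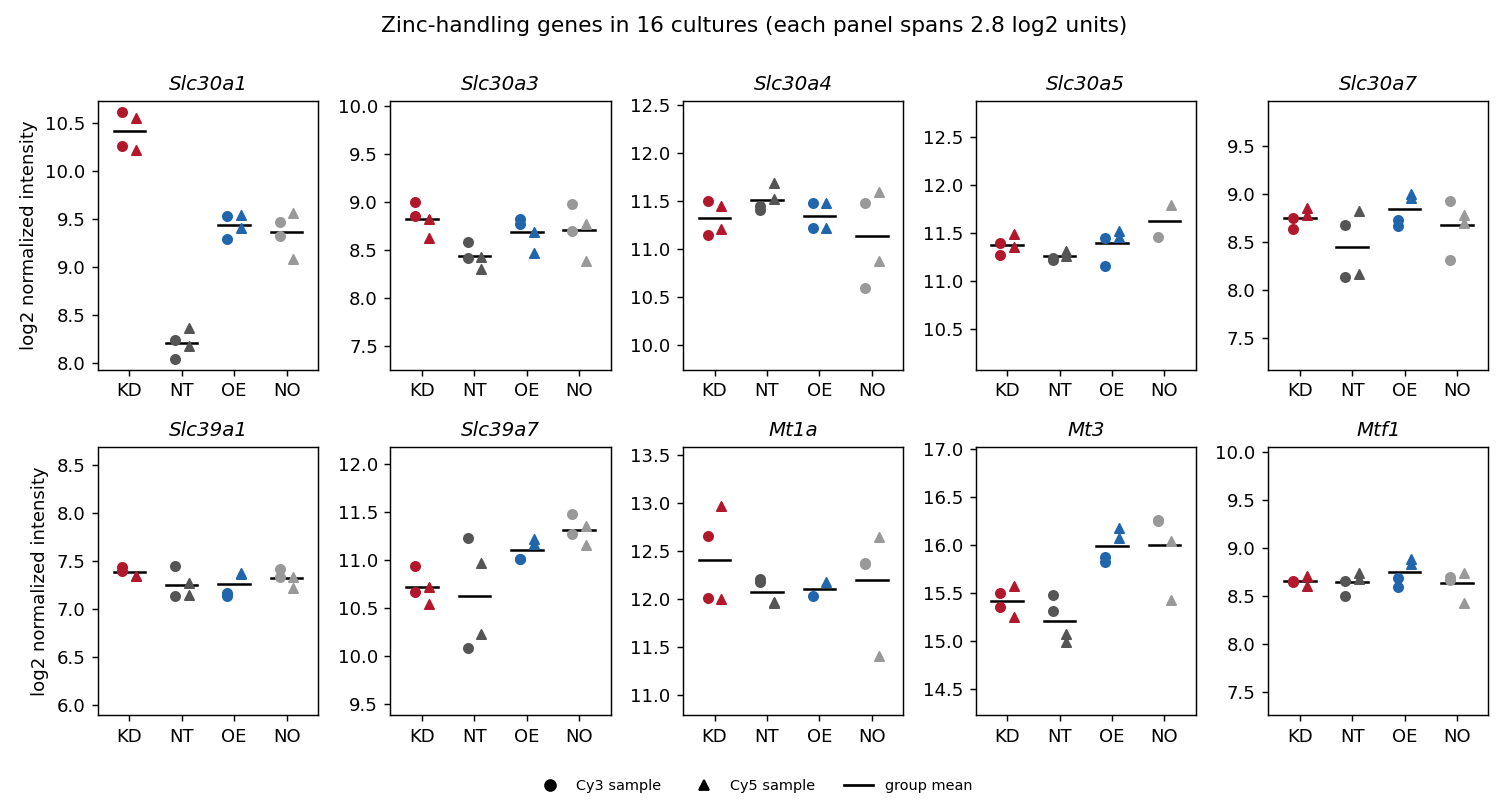
Log2 normalized intensity of the 10 zinc-handling genes in the knockdown (KD), nontargeting (NT), overexpression (OE) and not transduced (NO) cultures, with Cy3 samples as circles, Cy5 samples as triangles and group means as lines. Slc30a1 separates KD (10.22 to 10.62) from NT (8.04 to 8.37), with OE and NO between them, and the other panels show far smaller shifts.

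Of the other 9 members 1 rose and 0 fell in KD against NT past an adjusted p of 0.05 in limma, over all genes tested. Over all genes 21.5% passed in either direction and 10.5% rose, so this count is near the background. The median log2 difference of the 9 was 0.13, from -0.19 to 0.39, beside -0.02 for all genes, and 8 of the 9 were positive. Groups did not overlap for 1 of the 9, against 37.9% of all genes.

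The member that rose was Slc30a3, the exporter of synaptic vesicles. It had 8.86, 8.62, 9.00 and 8.82 in KD, against 8.59, 8.31, 8.41 and 8.43 in NT. Every KD sample was above every NT sample, although the lowest KD and highest NT values were close. OE cultures had 8.82, 8.47, 8.77 and 8.69, against 8.70, 8.39, 8.98 and 8.77 in NO cultures, and these groups overlapped. The log2 difference of KD and NT was 0.39 ± 0.13 (SE; interval 0.12 to 0.67, 1.31-fold, limma adjusted p = 0.041). It lost the call in 4 of 13 other settings, among them the fit with each array as 1 value (limma adjusted p = 0.107). The call was also lost in 5 of 8 fits without 1 replicate (KD 1, KD 3, KD 4, NT 2 or NT 3, with limma adjusted p of 0.056 to 0.078). In OE against NO it differed by -0.02 (interval -0.30 to 0.25), and the difference between both comparisons, 0.41, did not pass (limma adjusted p = 0.185). Across slides Slc30a3 differed by 0.11 in KD against NO (interval -0.16 to 0.39, limma adjusted p = 0.632). In NT against NO it differed by -0.28 (interval -0.55 to -0.0023, limma adjusted p = 0.139). Neither passed, so no rise of Slc30a3 over cultures with no virus was called.

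Slc30a5 and Slc30a7 encode exporters of the secretory pathway that supply zinc to enzymes made there, and Slc30a4 an exporter of intracellular compartments. Slc30a7 lay between 8.63 and 8.86 in KD, against 8.14 to 8.82 in NT, a difference of 0.30 (interval -0.11 to 0.71). The NT arrays differed from each other for this gene by 0.60, which is larger than that difference. Slc30a4 lay between 11.14 and 11.50 in KD, against 11.40 to 11.68 in NT, and its difference of -0.19 (interval -0.61 to 0.23) was the only negative one of the 9. Slc30a5 was read by 3 probes, whose differences were 0.12, -0.20 and -0.01, so the probes disagreed in sign and no probe passed.

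The importers did not change past the test in KD against NT. Slc39a1, an importer of the plasma membrane, lay between 7.35 and 7.44 in KD, against 7.14 to 7.45 in NT (difference 0.13, interval -0.17 to 0.44). Its probe was dim and was well above background in 2 of 4 samples of each group, all of them Cy5 samples. Slc39a7, which releases zinc from the endoplasmic reticulum and Golgi, had 10.93, 10.72, 10.66 and 10.54 in KD, against 10.08, 10.23, 11.22 and 10.96 in NT. The first NT array (10.15 as the mean of its samples) lay 0.94 below the other (11.09), and the KD samples fell between them. The difference of the groups was 0.09 (interval -0.41 to 0.59).

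The zinc-binding proteins and the sensor showed no change past the test in KD against NT either. Mt1a, the inducible metallothionein, had 12.01, 12.00, 12.66 and 12.97 in KD, against 12.21, 11.97, 12.18 and 11.96 in NT. Its KD arrays differed by 0.81, which is larger than the group difference of 0.33, and the interval of -0.44 to 1.10 leaves room for a rise of over 1 log2 unit. Mt3, the metallothionein of the brain, had 15.36, 15.25, 15.51 and 15.58 in KD, against 15.31, 15.08, 15.48 and 15.00 in NT (difference 0.21, interval -0.36 to 0.77). No spot of these probes was marked as saturated. Mtf1 lay between 8.61 and 8.71 in KD, against 8.50 to 8.75 in NT, and its difference of 0.01 had an interval of -0.28 to 0.30.

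**Figure D2:**
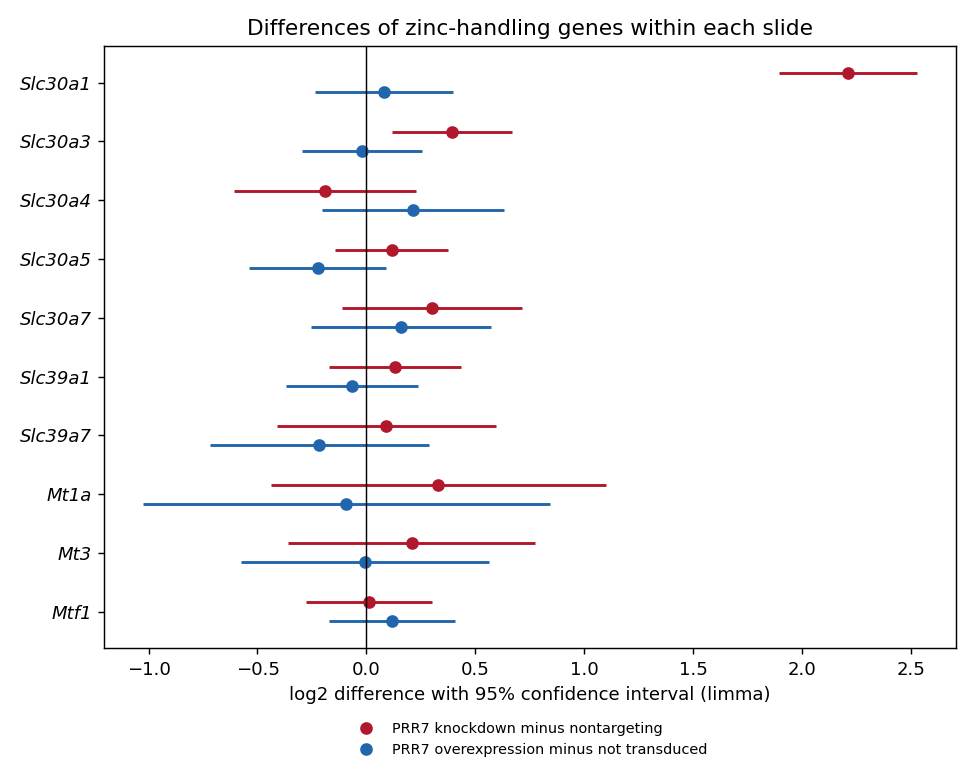
Log2 difference of each zinc-handling gene (points) with its 95% confidence interval (lines) for KD minus NT in red and OE minus NO in blue. Slc30a1 stands at 2.21 in KD minus NT with the other genes between -0.19 and 0.39, and in OE minus NO every interval crosses 0. The KD minus NT interval of Slc30a1, the gene chosen for its level in KD, is a description and no test.

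In OE against NO 0 of the 10 members passed in limma, and 0 had an unadjusted p under 0.05. By the adjusted p 0.00436% of all genes passed, so the comparison called almost nothing anywhere. An unadjusted p under 0.05 was found for 889 of the 22925 genes. Differences lay between -0.22 for the tested probe of Slc30a5 and 0.21 for Slc30a4. The intervals were widest for Mt1a (-1.03 to 0.84), for which 2 of the OE samples had no value because their spots were marked as outliers. Likewise 2 NO samples had no value for the tested probe of Slc30a5. No member passed for the difference between KD against NT and OE against NO, a test passed by 9.87% of all genes. Of the 9 tested there 1, Slc30a3, had an unadjusted p under 0.05. That share is at the adjusted p, so nothing is read from this count beside it.

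Mt3 differed between the slides. OE cultures had 15.88, 16.08, 15.83 and 16.18, and NO cultures had 16.26, 16.04, 16.26 and 15.44. Mt3 was thus lower in all KD and NT samples than in all OE samples, and NO replicate 4 alone of its group lay among the KD and NT samples. In NT against NO 2 of the 9 members fell and 0 rose, with 22.5% of all genes passing in either direction and 10.9% falling. These were Mt3 (log2 difference -0.78, interval -1.35 to -0.21, limma adjusted p = 0.047) and Slc39a7 (-0.69, interval -1.19 to -0.19, limma adjusted p = 0.047). In OE against NT Mt3 alone of the 9 rose (0.78, interval 0.21 to 1.34, limma adjusted p = 0.048), where 22.8% of all genes passed and 10.5% rose. Its OE and NT samples did not overlap, which was so for 37.1% of all genes. OE had 11.01, 11.16, 11.01 and 11.21 for Slc39a7, and NO had 11.27, 11.35, 11.48 and 11.15, so of the NT samples replicates 1, 2 and 4 lay below all OE and NO samples and replicate 3 lay among them.

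In KD against NO 0 of the 9 members passed in limma, where 10.1% of all genes passed. An unadjusted p under 0.05 was found for 2 of the 9, and for 5693 of all 22925 genes, so this count is near the background. The 2 were Slc39a7 (log2 difference -0.60, limma adjusted p = 0.125) and Mt3 (-0.58, limma adjusted p = 0.195). Each call across slides was lost without several single replicates. For Mt3 in NT against NO this held for NO 1, 2 or 3 and NT 1, 2 or 4 (limma adjusted p of 0.054 to 0.097). For Slc39a7 it held for the same 6 replicates (0.056 to 0.097), and for Mt3 in OE against NT it held for NT 1, 2 or 4 and OE 2 or 4 (0.055 to 0.099). Without NO replicate 4 Mt3 was -0.97 in NT against NO (limma adjusted p = 0.0063). Of the 10 astrocyte genes 3 fell and 0 rose in NT against NO (median -0.07), beside 10.9% of all genes that fell. In OE against NT 4 rose and 0 fell (median 0.09), beside 10.5% of all genes that rose. Mt3 is known from neurons and glia. Whether these markers bear on Mt3 was not tested, and slide and group cannot be told apart in these comparisons.

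The wider metal-handling genes were read in KD against NT from lists chosen for their function. A rise or fall there is relative to NT and can come from the level of either group. Of the other SLC30 exporters 3 of 5 were measured and none passed in limma, with differences of -0.26 for Slc30a2, -0.16 for Slc30a9 and 0.01 for Slc30a6. Of the other SLC39 importers 9 of 12 were measured, 1 rose and 0 fell (median -0.0038), a count near the 10.5% of all genes that rose. The importer that rose was Slc39a13, an organelle zinc transporter, with 11.57, 11.63, 11.55 and 11.88 in KD, against 11.02, 11.16, 11.22 and 11.35 in NT (difference 0.46, limma adjusted p = 0.030). Its other probe differed by -0.10 (limma adjusted p = 0.605), so the probes of this gene disagreed. Slc39a8, Slc39a6 and Slc39a4, which did not pass, differed by 0.36, -0.19 and -0.10. Mt2A, the only other metallothionein measured of 4 listed, differed by -0.24 with 2 NT values missing (limma adjusted p = 0.744).

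Of 12 genes described as responsive to MTF1 or zinc 9 were measured, 0 rose and 2 fell, with a median of 0.04 beside -0.02 for all genes. With 21.5% of all genes past the test and 10.5% higher, these counts are near the background. The heat shock gene Hspa1b had 8.64, 9.12, 8.88 and 8.89 in KD, against 9.61, 9.79, 9.80 and 9.94 in NT (difference -0.90, limma adjusted p = 0.0011). Hspa1b averaged 8.88 in KD and 9.79 in NT, with 9.41 in OE and 9.16 in NO on the other slide. The NO mean thus lay between those of KD and NT. Its near-identical copy Hspa1a differed by -0.39 without passing, and probes of the pair may share signal. The heme oxygenase gene Hmox1 fell too, with 11.24 to 11.52 in KD, against 11.80 to 12.10 in NT (difference -0.53, limma adjusted p = 0.031). It averaged 11.38 in KD, 11.91 in NT, 12.15 in OE and 11.98 in NO. Csrp1 differed by 0.34 and did not pass.

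The AP-3 adaptor sorts the vesicular zinc exporter into synaptic vesicles. Of 10 genes listed for vesicular zinc and AP-3, 9 were measured, 1 rose and 2 fell (median 0.02), in a comparison where 21.5% of all genes passed, so nothing is read from the count. The medium subunit gene Ap3m2, of the neuronal form of AP-3, had 10.64, 10.65, 10.73 and 10.78 in KD, against 11.19, 11.51, 11.38 and 11.73 in NT (difference -0.75, limma adjusted p = 0.0017). The large subunit gene Ap3b1 fell on both of its probes (-0.46 and -0.37, limma adjusted p = 0.033 and 0.011). The small subunit gene Ap3s2 rose (0.46, limma adjusted p = 0.0082), but its other probe, at 0.28, did not pass (limma adjusted p = 0.108). The chloride transporter gene Clcn3 differed by 0.61 (limma adjusted p = 0.052).

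Of 15 copper and iron genes 13 were measured, 1 rose and 4 fell (median -0.30), beside 21.5% of all genes past the test in either direction. The transferrin receptor gene Tfrc, which brings iron into the cell, rose to between 14.64 and 15.00 in KD, against 13.68 to 13.84 in NT (difference 1.01, limma adjusted p = 0.00021). Its other probes differed by 0.65, which passed (limma adjusted p = 0.0040), and 0.50, which did not. The iron exporter gene Slc40a1 lay between 7.19 and 7.24 in KD, against 7.98 to 8.13 in NT (difference -0.84, limma adjusted p = 8.5e-06). Its means were 7.21 in KD, 7.27 in NO and 7.06 in OE, against 8.05 in NT. The NT mean alone was thus set apart, though NO and OE lay on the other slide. Its tested probe was well above background in 2 of 4 KD samples and in 4 of 4 NT samples. The KD level was thus close to the background, and the size of the fall is uncertain. The other probe of Slc40a1 fell too, by less (-0.45, limma adjusted p = 0.0036). Smaller falls were those of the copper chaperone gene Ccs (-0.38) and the copper transporter genes Slc31a2 (-0.33) and Slc31a1 (-0.30), the last named to complete the count. The Slc31a2 probe too was well above background in 2 of 4 KD samples and 4 of 4 NT samples. Across slides, Ccs averaged 12.14 in KD, 12.52 in NT, 12.18 in OE and 12.29 in NO. Slc31a1 averaged 9.51, 9.81, 9.40 and 9.55 in the same order, so for both genes NT was the highest group and KD lay near OE and NO. Slc31a2 was lowest in KD, with 7.36, 7.69, 7.53 and 7.61.

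**Figure D3:**
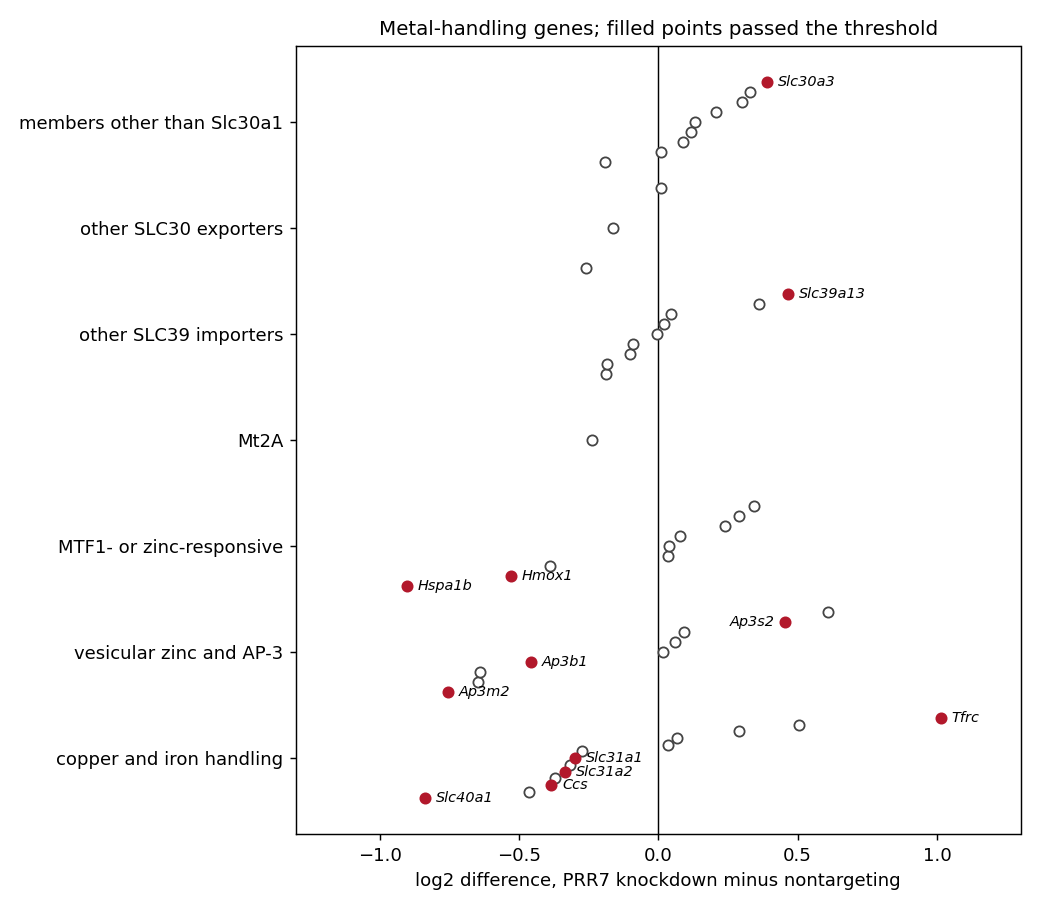
Log2 difference of KD minus NT for single genes (points) of the 9 zinc-handling members tested and of 6 lists of metal-handling genes, with genes past the threshold filled and named. The named genes lie on both sides of 0, from -0.90 for Hspa1b to 1.01 for Tfrc, and Slc39a13 is the filled point among the other importers.

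The genes whose values over the 16 samples were most like those of Slc30a1, among 10632 genes with a symbol and all values, were not zinc transporters. They were Oma1, a protease of the inner mitochondrial membrane (Pearson r = 0.974), the exocyst gene Exoc6 (0.974), the receptor gene Gpr158 (0.973), the splicing regulator Mbnl2 (0.973) and the mitochondrial dehydrogenase gene Acad8 (0.971). Oma1 averaged 11.10 in KD, 8.76 in NT, 10.11 in OE and 10.33 in NO. Among the members Slc30a3 was most like Slc30a1 (r = 0.84), and Slc30a4 had the lowest value (r = -0.28), with Mt1a and Slc30a5 left out for missing values. The samples share groups, arrays and slides, so these coefficients describe the order of the 4 groups as much as that of the samples. They also include the KD values for which Slc30a1 was chosen, so no shared regulation is read from them.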

How the data were processed

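Single-channel values of 16 samples on 8 dual-dye Agilent rat arrays were analysed. Per the file headers, the intensity values are spot and local background signals from the scanner software, Agilent Feature Extraction 10.7.3.1, which is also named in the submitters' processing notes, and they were not normalized. The deposited series matrix holds log2 values that equal the median signal minus the median background, centred on the column median (slope and r of 1 against the scanner files). A label field that describes another tissue contradicts the other labels and was not used.

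Background was corrected by normexp (offset 50), dyes by loess (weight 0 for control spots) and arrays by Aquantile in limma 3.58.1 (with the R packages statmod, version 1.5.0, and data.table, version 1.17.8, in R 4.3.3). Spots marked as outliers were left out, spots of a probe averaged, and probes kept if well above background in at least 4 of 16 samples with at least 12 values and 2 per group. The brightest probe of each gene was tested. The model held group and dye, with the array as random block (correlation 0.569) and empirical Bayes moderation. Two-sided p-values were adjusted by Benjamini-Hochberg over 22925 genes. The code was tested on simulated data. The number of arrays limits the precision.

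Members and lists were chosen with earlier results of these data known. All members were named, with up to 4 genes of smallest p per list and every zinc-list gene past the threshold, and the 5 genes most correlated with Slc30a1. A result for 1 marker gene is not reported here. Same-numbered KD and NT samples correlated at 0.138, 0.153, 0.253 and 0.201 after group means were removed, but they share a dye. With the dye removed too, the values were 0.139, 0.078, 0.149 and 0.075. Other settings were another background offset, normalization, probe filter, set of samples or block, and single replicates left out. Plots used matplotlib 3.10.9 in Python 3.11.15.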

Additional observations from a re-analysis of the deposited data

How the results depend on the processing

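The KD minus NT difference of Slc30a1, a description, lay between 2.17 and 3.1 on the log2 scale over 21 alternatives, 9 of which return the same estimate because for this gene they change only the error, the filter or other spots. The counts of other members past the threshold rest on values close to it. In KD against NT the count of 1 became 0 with quantile normalization of single channels, with each array as 1 value, with only the groups compared and with a minimum fold of 1.5, and it ranged from 0 to 1 with 1 replicate left out. In NT against NO the count of 2 became 0 with processed signals and with the minimum fold, 1 with series matrix values, outlier spots kept, each array as 1 value or only the groups compared, and 4 with samples taken as independent, with a range of 0 to 2 without 1 replicate. In OE against NT the count of 1 became 0 with processed signals, series matrix values, single-channel quantile, outlier spots kept, only the groups compared and the minimum fold, and 2 with independent samples, with a range of 0 to 1 without 1 replicate. In KD against NO the count of 0 became 2 with independent samples and 1 with only the groups compared, with a range of 0 to 1. In OE against NO it was 0 throughout, and for the difference of comparisons it was 1 with independent samples and 0 otherwise. The cause of these changes was not tested. Among 1185 refitted differences of single members, 0 reversed a called direction, 40 lost a call and 9 gained it.

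Over all genes, independent samples raised the calls to 8281 from 4919 in KD against NT, 32 from 1 in OE against NO, 5945 from 2311 in KD against NO, 9122 from 5147 in NT against NO, 9148 from 5220 in OE against NT and 5296 from 2263 for the difference. With each array as 1 value there were 3090, 0, 947, 3283, 3317 and 948 in the same order, and with the minimum fold 483, 0, 84, 392, 357 and 233. With only the groups compared there were 3249 in NT against NO and 0 in OE against NO, where processed signals gave 2, series matrix values 4 and fits without 1 replicate 0 to 2.

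With the replicate number as a block the member counts were 1, 0, 0, 2 and 1 in KD against NT, OE against NO, KD against NO, NT against NO and OE against NT, and 0 for the difference, so the replicate block changed no call of a member. Slc30a3 had a limma adjusted p of 0.012 with it. In the fit with each array as 1 value, Mt1a and Slc30a5 gave no value. The dim probe of Slc39a1 limits what can be said of that gene.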
